A study of Saccharomyces cerevisiae
Saccharomyces paradoxus with 24 samples.

Results

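The 20 to 60 min interval of the Rap1 anchor-away time course was examined in all 1118 Rap1 ChIP-seq windows (150 bp on either side of a summit). The authors called these windows as MACS peaks in the 0 min libraries, so they were selected on 0 min signal, which is also the denominator of each share left; none was selected here on later values. The comparison set the 2 libraries of 60 min against the 2 libraries of 20 min, of 16 ChIP libraries in the time course (8 times, 2 isolates). The 2 strain isolates, JRy15237 (isolate 1) and JRy15238 (isolate 2), were each sampled at both times, so the libraries were paired by isolate. At both times the cells had been in 7.5 µM rapamycin; the 0 min cells received DMSO, for which the labels give 60 min. Libraries of 30 and 45 min served as a check.

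Both isolates carried the same alleles. Rap1 bore an internal FRB tag and a V5 epitope (Rap1(134)-FRB_2xV5), the anchor was RPL13A-2xFKBP12::TRP1, and TOR1(S1972I) with fpr1::NAT made the cells insensitive to rapamycin. HML was hmlalphadelta::UniqueHMLwithSNPs, HMR was deleted (hmrdelta::HygMX), and BAR1 was bar1delta::k.l.URA3. The strains also carried mutant alleles of CAN1, HIS3, LEU2, LYS2, TRP1 and URA3. An untagged control was not analysed here. Signal was the number of reads in a window per 1000000 reads of S. paradoxus cells (JRy15212, Rap1-2xV5) that were added to each sample and saw no rapamycin.

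Rap1 is an essential yeast protein that binds a recognition sequence in the promoters of most ribosomal protein (RP) genes and many genes of translation and glycolysis, where it activates transcription. It also binds the telomere repeats and the silencers E and I that flank HML, a silent copy of the mating-type genes, where it helps to recruit Sir proteins. In anchor-away, rapamycin ties the FRB-tagged protein to an FKBP12-tagged ribosomal protein that leaves the nucleus, so a site that releases Rap1 finds little to rebind, and the signal that remains after a given time is that of Rap1 still bound, plus any background.

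The libraries of 60 min did not share 1 level. In isolate 1 the median window changed by -0.42 on the log2(signal + 1) scale from 20 to 60 min and 1059 of 1118 windows were lower at 60 min. In isolate 2 the median window changed by 0.11 and 405 of 1118 were lower. At 60 min the isolates differed by -0.51 at the median window (isolate 1 minus isolate 2), a shift common to all windows that made up 88.2% of the squared difference between them, whereas at 20 min it made up 0.24%. A fall common to all windows between 20 and 60 min was thus seen in 1 isolate and not in the other, and the 2 isolates cannot tell whether the signal as a whole fell. The median window held 144.5 and 151 reads at 60 min and 197.5 and 172.5 reads at 20 min, with S. paradoxus totals between 4397759 and 9219038 reads over the 16 libraries.

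The order of the windows was more alike than their level. Over 1118 windows the changes of the 2 isolates had a Pearson r of 0.76 (Spearman rho 0.63), with r = 0.945 over the 54 windows upstream of RP genes and r = 0.179 over the 238 tRNA windows; windows share their library and are not replicates. In both isolates 404 windows (36.1%) were lower at 60 min and 58 (5.19%) were higher, and relative to the median window of the library 437 (39.1%) were lower and 348 (31.1%) higher in both. On the spike-in scale, limma called 176 windows lower at 60 min (15.7%) and 3 higher (0.268%) at an adjusted p below 0.05. Without the 60 min library of isolate 1, which stood apart, 103 were lower, without the 20 min library of isolate 1 105 were, and without the isolate block 95 were lower and 0 higher. Scaled to the total over all windows in place of the S. paradoxus reads, 155 were lower and 72 higher. Relative to the median window of each library, which removes the common shift, 228 were lower (20.4%) and 88 higher (7.87%). The higher count was 54 and 44 without the 20 min library of isolate 1 and of isolate 2, and 45 without the 60 min library of isolate 2. Centered on tRNA windows, 259 were lower and 56 higher. With only the 548 windows of a mean signal of at least 50, 81 were lower and 54.9% higher than the median window of these 548. Their median change was -0.30 on the spike-in scale and 0.29 relative to that median window. All 176 windows lower on the spike-in scale were also lower than the median window.

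**Figure D1:**
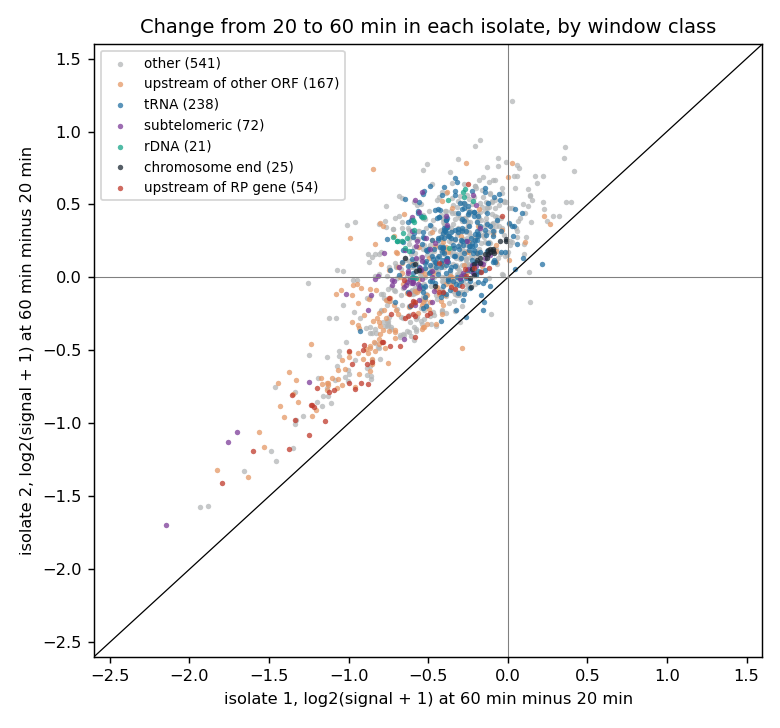
Change in log2(signal + 1) at 60 min minus 20 min for 1118 windows, isolate 1 on the horizontal and isolate 2 on the vertical axis, colored by window class with the number of windows in the key; the diagonal marks equal change. Nearly all points lie above the diagonal, and the point furthest to the lower left is the subtelomeric window of RMD6 (-2.15 and -1.70); 46 of 54 windows upstream of RP genes (red) and 109 of 167 upstream of other ORFs (orange) lie below 0 in both isolates.

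A window was called late-falling when it was lower than the median window and lower on the spike-in scale in both isolates, and at a plateau when neither scale gave a call and the 95% interval of its spike-in change lay within -1 to 1. By these rules 225 windows (20.1%) fell late, 802 (71.7%) were at a plateau between 20 and 60 min and 91 were in neither group. The plateau rule admits falls that gave no call: 179 of the 802 were lower in both isolates on the spike-in scale, against 404 of all 1118. Plateau windows had a median 20 min signal of 17.8, and how much of it was background was not tested. The plateau rule did not use the times between. At 60 against 30 min limma called 74 of the 802 lower and 100 higher than the median window, and 33 lower on the spike-in scale. Over all 1118 windows these counts were 129 (11.5%), 183 (16.4%) and 77 (6.89%). The weakest of the late-falling changes was at PAU9 (-0.26 against the median window, adjusted p = 0.044 from limma). The groups were chosen on the 60 and 20 min libraries, so the values of those libraries only describe them.

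Promoters held most of the late fall. Of 54 windows whose summit lay within 300 bp upstream of an RP gene 35 were late-falling and 18 were at a plateau, and of 167 windows upstream of other ORFs 84 were late-falling and 77 at a plateau. The class of other ORFs includes windows that also lie 300 to 500 bp before an RP gene, as that of PRE2 and RPL11A (228 and 373 bp). Of 238 windows over tRNA genes 2 were late-falling, and of 21 rDNA windows and 25 windows at chromosome ends none was; 226 tRNA windows, all 21 rDNA windows and all 25 end windows were at a plateau. The median change of the RP windows was -0.74 in isolate 1 and -0.43 in isolate 2, that of the windows upstream of other ORFs -0.71 and -0.16, and that of tRNA windows -0.33 and 0.20. The remaining late-falling windows were 10 of 72 subtelomeric windows, within 15 kb of a chromosome end, and 94 of 541 windows in no class, of which 73 lay outside ORFs.

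Late-falling windows had been stronger before rapamycin. Their median 0 min signal was 441.2, against 107.1 in plateau windows. Their median share of the 0 min signal was 31.2% at 20 min, against 19.0% in plateau windows, and at 60 min the shares were alike, 16.4% and 17.7%. The 20 and 60 min values chose the groups and favor a high share at 20 min among late-falling windows, so these shares only describe them. Of the 280 windows with the highest 0 min signal 144 were late-falling, against 12 of the 280 with the lowest. Among windows upstream of other ORFs, 45 of 64 with a 0 min signal of at least 331.3 were late-falling and 2 of 21 with one of at most 88.2. Signal strength thus moved with the late fall, and its part in the result was not tested.

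The time at which the fall ended differed between the classes. At RP promoters the median share of 0 min signal was 43.8% at 20 min, 26.8% at 30 min, 23.5% at 45 min and 26.5% at 60 min. The step from 20 to 30 min had medians of -0.53 in isolate 1 and -0.50 in isolate 2, that from 30 to 45 min -0.19 and -0.21, and that from 45 to 60 min 0.00 and 0.30. The decline before it, from 0 to 20 min, was -0.49 per 10 min in isolate 1 and -0.72 per 10 min in isolate 2. Over all 1118 windows the medians of these steps in isolates 1 and 2 were 0.02 and 0.12, then -0.04 and -0.16, then -0.42 and 0.16. In both isolates 49 of 54 RP windows were lower at 30 than at 20 min (337 of 1118 windows). From 45 to 60 min 1 of 54 was lower in both (259 of 1118 windows). With 30 min as the baseline, 1 of 54 RP windows was lower than the median window at 60 min by limma (129 of 1118 windows, 11.5%) and 18 were higher (183 of 1118, 16.4%), and no RP window was lower on the spike-in scale (77 of 1118, 6.89%). The course was not particular to RP promoters. The 64 windows upstream of other ORFs with a 0 min signal of at least 331.3 had a like one. Their median shares were 39.05% at 20 min, 25.2% at 30 min, 21.3% at 45 min and 22.5% at 60 min.

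At tRNA genes the loss was over earlier. Their share of 0 min signal was 14.8% at 20 min, 18.1% at 30 min, 17.4% at 45 min and 13.9% at 60 min, and a median of 99.5% of the signal lost by 60 min had been lost by 20 min, against 81.2% at RP promoters. The paper left peaks over tRNA genes out of its residence times, stating that no tie of Rap1 to genes of RNA polymerase III is known. It added that ChIP peaks at highly transcribed loci are often artifacts. How much of the signal at tRNA genes was Rap1 was not tested here. Chromosome-end windows, over or near the telomere repeats, kept a median of 80.6% at 20 min and 80.1% at 60 min. Between them the share was 104.3% at 30 min and 87.7% at 45 min. The isolates disagreed at 30 min, with 135.6% in isolate 1 and 72.6% in isolate 2. The rDNA windows had 26.3% at 20 min and 24.1% at 60 min, with 35.1% at 30 min between them. At 60 against 30 min limma called 8 of the 21 rDNA windows lower than the median window, against 11.5% of all windows. The rDNA reads come from many copies of the repeat.

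**Figure D2:**
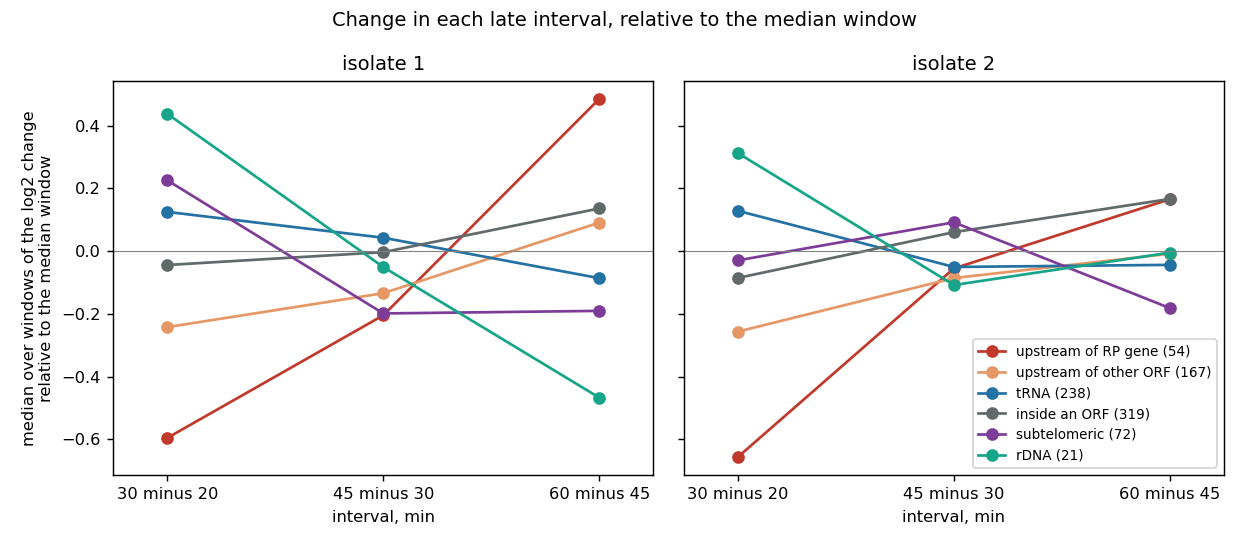
Median over windows of the log2 change in each late interval relative to the median window of the library, for 6 sets of windows in isolate 1 (left) and isolate 2 (right), with the number of windows in the key; lines join the intervals of a set. RP promoter windows lie lowest from 20 to 30 min (-0.60 and -0.66) and above 0 from 45 to 60 min (0.49 and 0.17).

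The 30 and 45 min libraries entered neither side of the 60 against 20 min difference. Of the 225 late-falling windows 193 were lower at 45 than at 30 min in both isolates (background 47.1%), and 166 were lower relative to the median window in both (background 32%). Of the plateau windows 316 of 802 and 177 of 802 were. In limma 34 windows were lower than the median window at 45 against 30 min (3.04%) and 3 were higher, and 32 of the 34 were late-falling. This count rested on single libraries: it was 2 without the 45 min library of isolate 1, 65 without that of isolate 2 and 54 without the 30 min library of isolate 1. All libraries of all times share the estimate of the spread, so the 2 comparisons are not wholly separate.

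The late fall was led by single promoters, RP genes and the silent mating locus. The 8 windows with the largest fall against the median window, limited to windows with a 20 min signal of 50 or more, had the same direction in both isolates by the rule that named them. The largest was upstream of RMD6 (V:13273-13573, summit 297 bp before the ORF, subtelomeric). RMD6 had signals of 51.8 and 71.6 at 60 min, against 233.1 and 235.0 at 20 min, and the groups did not overlap. Its change was -1.93 on the spike-in scale (SE 0.16) and -1.80 against the median window (SE 0.10), and it went on after 30 min, where it had 152.8 and 141.1 (60 against 30 min -1.02, SE 0.10).

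SFA1 encodes an enzyme that oxidizes formaldehyde and long-chain alcohols. Its promoter window (IV:159250-159550) had 34.6 and 46.6 at 60 min, against 125.4 and 117.6 at 20 min, a change of -1.45 against the median window (SE 0.10). YLR264C-A, a small ORF (window XII:673891-674191), had 76.3 and 98.9 at 60 min, against 238.2 and 256.3 at 20 min (-1.37, SE 0.10). In each of these windows both 60 min libraries lay below both 20 min libraries.

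At the RP genes the fall was led by RPS12, RPL26A and windows further upstream of RPS26B and RPS25B. RPS12, which encodes a protein of the small subunit, had 102.6 and 140.4 at 60 min, against 358.1 and 373.9 at 20 min (window XV:1028754-1029054; -1.47 against the median window, SE 0.10). RPL26A, of the large subunit, had 167.6 and 231.2 at 60 min, against 529.8 and 582.4 at 20 min (XII:818855-819155; -1.37, SE 0.10). The window V:423137-423437, with its summit 665 bp before RPS26B, had 63.3 and 91.5 at 60 min, against 244.8 and 274.8 at 20 min (-1.63, SE 0.10). The window XII:796490-796790, 741 bp before RPS25B, had 106.3 and 137.1 at 60 min, against 394.1 and 408.0 at 20 min (-1.60, SE 0.10). The windows differed in when they stopped: at 30 min RPS12 was already at 126.4 and 164.7, and its change from 30 to 60 min against the median window was -0.02 (SE 0.10, adjusted p = 0.89 from limma), whereas that of the RPS26B window was -0.39 (SE 0.10, adjusted p = 0.0017).

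The 3 named sites of HML were lower at each later time in both isolates, except HML-E in isolate 2 from 45 to 60 min. HML-p, the promoter shared by HMLALPHA1 and HMLALPHA2 (III:12995-13295), had 252.6 and 237.1 at 20 min, 191.0 and 167.1 at 30 min, 129.6 and 124.2 at 45 min and 73.9 and 108.0 at 60 min. HML-I, the silencer beyond HMLALPHA1 (III:14505-14805), had 206.3 and 222.4, 166.9 and 156.1, 120.7 and 112.8, and 62.9 and 106.3 at the same times. HML-E (III:11089-11389) had 259.9 and 279.6, 219.0 and 209.6, 151.7 and 166.5, and 108.7 and 169.9. Both 60 min libraries lay below both 20 min libraries at each site. Against the median window the changes from 20 to 60 min were -1.32 (SE 0.10) at HML-p, -1.25 (SE 0.10) at HML-I and -0.86 (SE 0.10) at HML-E. From 30 to 60 min they were -0.75, -0.73 and -0.41 (adjusted p = 2.8e-09, 3.9e-09 and 0.0014 from limma). The share of 0 min signal at 60 min was 10.2% at HML-p, 11.1% at HML-I and 19.7% at HML-E, against 28.0%, 29.5% and 39.2% at 20 min.

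MAT-p, the promoter of the active copy (III:200151-200451), had 91.2 and 129.5 at 60 min, against 205.8 and 215.6 at 20 min (-0.82 against the median window, SE 0.10). Its change from 30 to 60 min was -0.23 against the median window (SE 0.10, adjusted p = 0.066 from limma) and -0.47 on the spike-in scale (SE 0.16, adjusted p = 0.041), which passed the threshold. The change at HML-p minus that at MAT-p was -0.59 in isolate 1 and -0.40 in isolate 2, that at HML-I minus MAT-p -0.53 and -0.33, and that at HML-E minus MAT-p -0.08 and 0.02; these differences were not tested. SST2, which encodes a protein that turns off pheromone signaling, had 34.1 and 50.3 at 60 min, against 72.7 and 82.0 at 20 min (XII:1041492-1041792; -0.76, SE 0.10), but from 30 to 60 min 0.04 (SE 0.10, adjusted p = 0.81 from limma).

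Of the 225 late-falling windows 53 were also lower than the median window at 60 against 30 min and 32 were higher (11.5% and 16.4% of all windows). The 53 comprised 29 windows upstream of ORFs other than RP genes, 8 of the 10 late-falling subtelomeric windows, and 16 windows of no class, and none of the 35 late-falling windows within 300 bp upstream of RP genes was among them, while 11 of those 35 were among the 32. Of all 72 subtelomeric windows 31 were lower at 60 against 30 min. Not all of the 8 fell steadily: PAU9 had 104.1 and 101.8 at 30 min, against 91.2 and 97.5 at 20 min. Windows further from RP genes were among the 53: RPL26A, with its summit 307 bp upstream (-0.31, SE 0.10, adjusted p = 0.018 from limma), the window of TOS4 and RPL37A, and that of RPS26B. Of the 65 late-falling windows within 500 bp of RP genes, 2 were among them. PGI1, which encodes the isomerase of glucose 6-phosphate in glycolysis, was also lower (II:614123-614423). PGI1 had 39.8 and 67.1 at 60 min, against 108.9 and 124.4 at 20 min. REH1, TEF1 and the window of RPS30B and SER1 were late-falling but higher than the median window at 60 against 30 min (adjusted p = 0.014, 0.019 and 0.0058 from limma). TEF1, a gene of translation elongation factor eEF1A, had 783.5 and 808.8 at 20 min, 498.0 and 546.2 at 30 min, 435.8 and 466.1 at 45 min and 498.3 and 614.3 at 60 min.

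**Figure D3:**
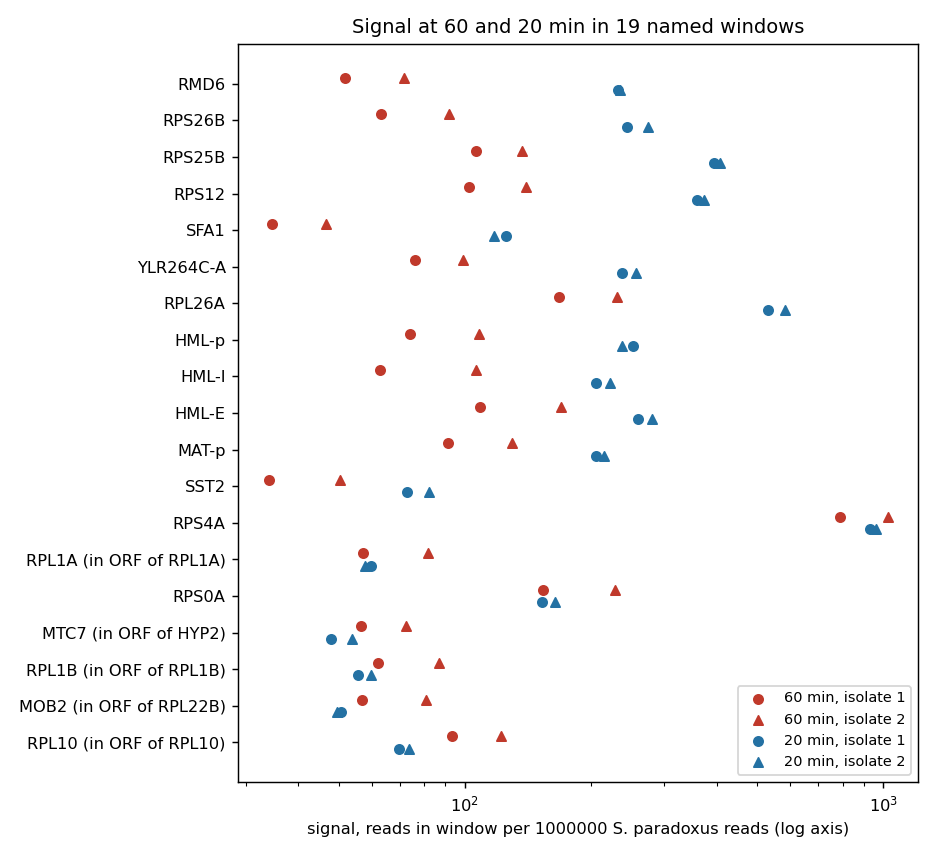
Signal (reads per 1000000 S. paradoxus reads, log axis) at 60 min (red, upper) and 20 min (blue, lower) in both isolates (circles and triangles) for 19 named windows, ordered by change against the median window from the largest fall at the top. The 12 windows from RMD6 to SST2 have both 60 min libraries left of both 20 min libraries; at RPS4A the times overlap.

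RP promoters did not move as 1 group. With windows up to 500 bp upstream counted, 115 windows lay before RP genes, of which 65 were late-falling and 45 at a plateau; 42 of 70 windows of large-subunit genes and 24 of 49 of small-subunit genes were late-falling. The strongest window of the RP class, between RPS22A and RPL39 (X:75401-75701), had 933.3 and 1136 at 60 min, against 1014 and 1086 at 20 min, and the times overlapped. It kept 73.7% of its 0 min signal at 60 min and 75.7% at 20 min. RPS4A (X:703293-703593) had 786.4 and 1024 at 60 min, against 930.8 and 960.5 at 20 min, with 57.3% and 61.3% left. The late-falling and plateau windows of the RP class had kept 43.8% and 51.0% at 20 min, with median 0 min signals of 624.4 and 429.9, and over the 54 windows the share left at 20 min had a Pearson r of 0.12 with the late change (Spearman rho 0.22). In the check libraries their median change at 45 against 30 min relative to the median window was -0.22 and -0.04.

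Most yeast RP genes exist as a pair of near-identical copies, A and B, with promoters of their own. A promoter window was found for each copy in 48 pairs. In 15 pairs both copies were late-falling, in 9 neither was, and in 24 only 1 copy was. Of all 115 windows within 500 bp upstream of RP genes 65 (56.5%) were late-falling. The counts of pairs were not set against those of RP windows paired at random, so they do not show that copies differ more or less than other RP windows. A minus B had the same sign in both isolates in 41 of 48 pairs, and its median size was 0.37 on the log2 scale. The windows before RPL13A and RPS16B and before RPL13B and RPS16A are shared between these pairs. The difference between copies was not tested pair by pair.

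The widest difference was at RPS27, and it was chosen here after its values were seen. RPS27A (XI:158263-158563) had 37.7 and 54.4 at 60 min, against 116.3 and 125.1 at 20 min. RPS27B (VIII:148940-149240) had 356.1 and 451.4 at 60 min, against 409.6 and 421.4 at 20 min. The change of RPS27A minus that of RPS27B was -1.40 in isolate 1 and -1.29 in isolate 2. At RPL2 the order of the copies was the other way. RPL2B (IX:316227-316527) had 687.6 and 852.5 at 60 min, against 1485 and 1546 at 20 min. RPL2A (VI:221747-222047) had 396.8 and 594.7 at 60 min, against 416.0 and 455.5 at 20 min, and A minus B was 1.04 and 1.24. RPS0 was like it: RPS0B (XII:241686-241986) had 381.6 and 501.4 at 60 min, against 705.3 and 770.0 at 20 min, and RPS0A (VII:919962-920262) had 153.6 and 228.7 at 60 min, against 152.7 and 164.2 at 20 min.

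**Figure D4:**
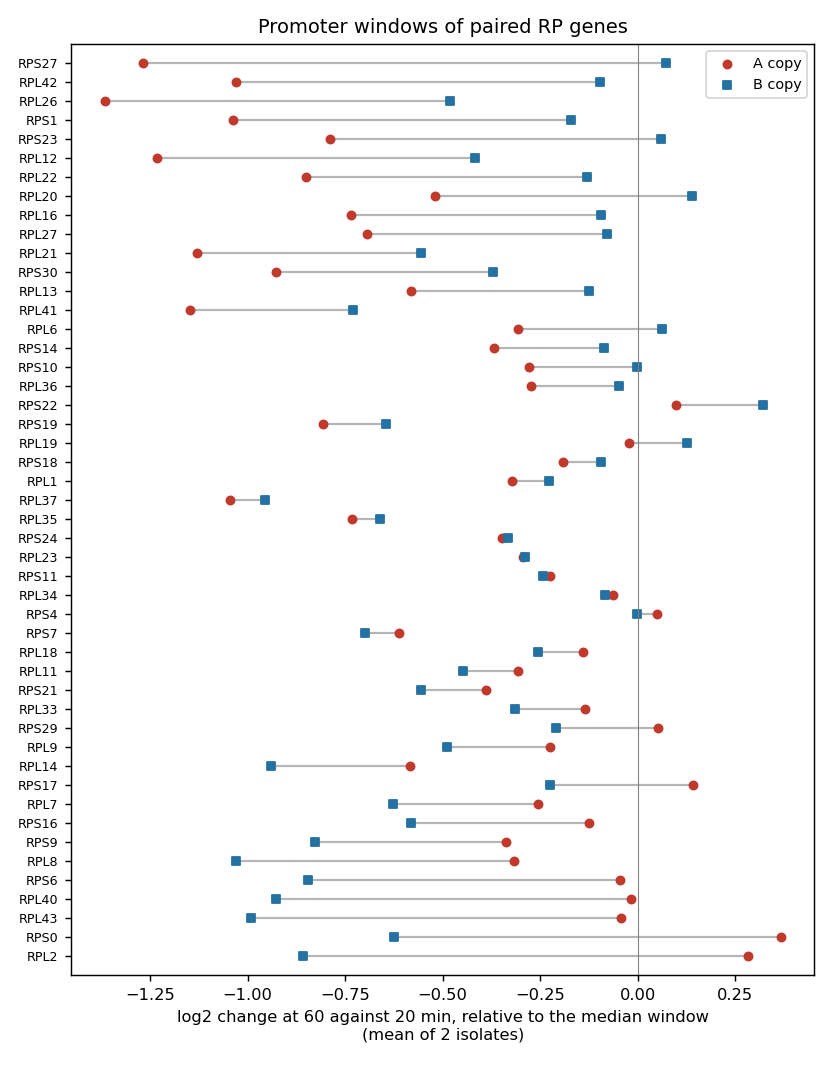
Log2 change at 60 against 20 min relative to the median window (mean of 2 isolates) for the promoter windows of 48 pairs of RP genes, A copy as red circles and B copy as blue squares, ordered by A minus B. The copies are furthest apart at RPS27 (A lower) and RPL2 (B lower), and nearly coincide at RPL23, RPS24 and RPL34.

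The windows that rose against the median window lay mostly inside genes. Of the 88, 64 had their summit inside an ORF, as did 31.8% of all windows. Of 319 windows of no other class with a summit inside an ORF, 61 were higher and 23 lower than the median window (7.87% and 20.4% of all windows), and of the 139 inside RP ORFs 30 were higher and 10 lower. The 61 became 35 and 32 without the 20 min library of isolate 1 and of isolate 2, and 40 and 27 without the 60 min library of isolate 1 and of isolate 2, and the 23 became 12 to 14. The split into windows inside and outside ORFs was made after the values were seen. RPL10 (window XII:283162-283462 inside the ORF) was the highest by the rule for named windows, with 93.3 and 122.3 at 60 min, against 69.8 and 73.5 at 20 min. It rose on both scales, by 0.57 on the spike-in scale (SE 0.17, adjusted p = 0.0053 from limma) and by 0.70 against the median window (SE 0.10). The RPS15 window, also inside the ORF, was higher on the spike-in scale too (0.63, SE 0.20, limma adjusted p = 0.011), with 50.9 and 65.5 at 60 min, against 39.4 and 34.8 at 20 min. In both RPL10 and RPS15 the 60 min libraries lay above the 20 min libraries. These windows were weak beside promoters: the 139 inside RP ORFs had a median signal of 21.8 at 60 min and 22.5 at 20 min. The paper cautions that highly transcribed loci often give ChIP artifacts. The untagged control was not analysed, so how much of the signal inside ORFs was Rap1 was not tested.

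Windows upstream of a gene and inside it moved apart. In 120 genes with a window in both places that did not overlap, the upstream window fell more than the ORF window in both isolates in 107 and less in 2. For the 96 RP genes these counts were 87 and 1. Some upstream windows serve more than 1 gene, as that shared by BUD20 and RPL10, so the 120 are not all separate windows. The upstream windows of BUD20 and NTC20, counted among the other genes, also lie before RPL10 and RPS9B. Over the 120 genes the upstream windows had median changes of -0.60 in isolate 1 and -0.26 in isolate 2, and the ORF windows -0.29 and 0.27. The pair of windows at RPL10 shows it: its promoter window (XII:282522-282822) had 202.6 and 274.3 at 60 min, against 306.9 and 327.0 at 20 min, 640 bp from the window in the ORF that rose. Upstream windows have more signal than ORF windows, and the part of signal strength in this difference was not tested.

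**Figure D5:**
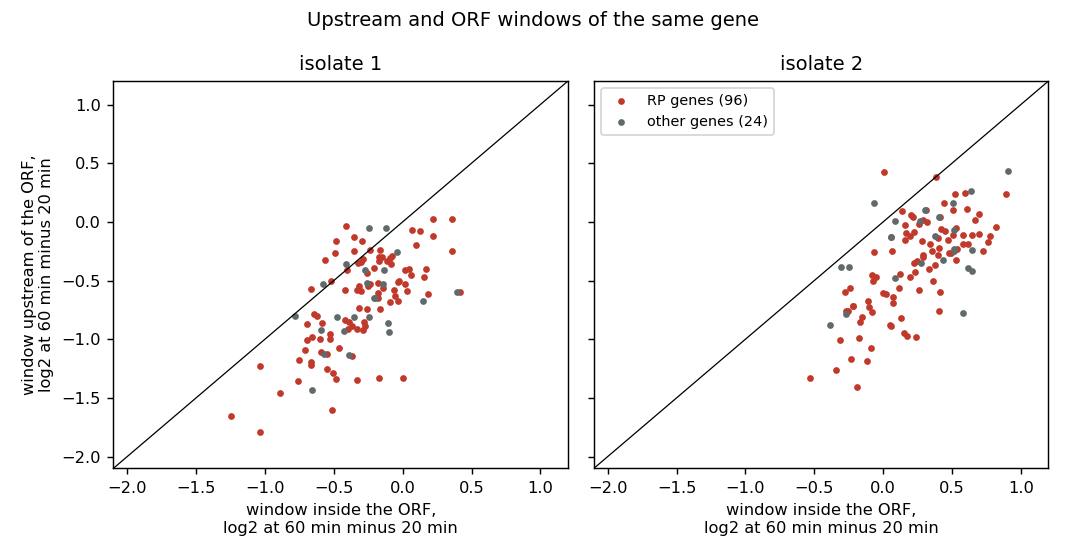
Log2 change at 60 min minus 20 min of the upstream window (vertical) and of the ORF window (horizontal) of the same gene for 96 RP genes (red) and 24 other genes (gray), in isolate 1 (left) and isolate 2 (right); the diagonal marks equal change. In both isolates most points lie below the diagonal.

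The gene lists apart from RP genes were small. Of windows within 500 bp upstream of their genes, 3 of 6 for translation factors, 6 of 9 for the assembly of ribosomes and for RNA polymerases I and III, 3 of 4 for glycolysis and fermentation, 3 of 7 for amino acid and nucleotide synthesis, 3 of 4 for chaperones and heat shock and 4 of 5 for mating and silent loci were late-falling, against 20.1% of all windows. Of the 167 windows within 300 bp upstream of ORFs other than RP genes 50.3% were late-falling, so shares of this size are not particular to the lists. Some of the 167 also lie 300 to 500 bp before RP genes, so 50.3% is not a share of promoters without RP genes. ENO1, which encodes the glycolytic enolase, had 61.0 and 75.1 at 60 min, against 107.4 and 105.2 at 20 min (VII:1000317-1000617; -0.52 against the median window, SE 0.10). The telomere-proximal families had 1 of 10, and that window (XII:241686-241986) lies before RPS0B as well as FRE8. The 3 for amino acid and nucleotide synthesis include the window of RPS30B and SER1, so some list windows are also RP promoters. GCR1, an activator of glycolytic genes and the only window of its list, was at a plateau with 40.7 and 61.1 at 60 min, against 57.8 and 71.1 at 20 min.

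The 6 plateau windows with the most signal at 20 min lay at chromosome ends or in subtelomeres; at 0 min the highest plateau signal was 19030, in the rDNA. The window at the left end of chromosome III (III:120-420) had 11380 and 14880 at 60 min, against 11770 and 12530 at 20 min, and kept 80.9% of its 0 min signal at 60 min. That near YFL064C (VI:4587-4887) had 5331 and 6406 at 60 min, against 5771 and 5765 at 20 min, with 83.2% left. In both windows the times overlapped. Reads from repeated ends cannot be assigned to a single chromosome with certainty.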

How the data were processed

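Rap1-V5 ChIP-seq was compared at 60 and 20 min in 2 isolates. Per the labels and the paper, the authors used CASAVA 2.2, Bowtie2 and SAMtools (other versions are not given in the sources used here) and aligned reads to sacCer3, modified at HML and HMR, combined with the S. paradoxus genome. The authors deposited a signal per window, that is, reads within 150 bp of a MACS summit per 1000000 S. paradoxus reads, and whole-number counts of S. paradoxus reads per library, without rDNA. Replicates were not pooled. Reads per window given here are signal times those counts, rounded (100% lay within 0.01 of an integer), and no count test was run. The table had 1 line that is no window and 14 columns of other inputs, none of which was used. Positions are 1-based in the modified sacCer3; gene names came from RefSeq R64, and right of HMR on chromosome III they may be offset.

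Log2(signal + 1) of all 16 ChIP libraries was fitted with limma 3.58.1 (R 4.3.3), with time as a factor, the isolate as a block and a spread trended on mean signal; tests were 2-sided, adjusted by Benjamini-Hochberg over 1118 windows at 0.05. The spread was pooled over windows of like signal, so the size of a small p-value is no measure of replication, and p-values measure only the spread between 2 isolates. A fold change on this scale understates that of weak windows. The median standard error was 0.23 on the spike-in scale and 0.12 relative to the median window. The labels give each isolate at every time, which sets the pairing; same-isolate deviations correlated between -0.208 and 0.408 (median 0.168) over 28 pairs of times, 0.0389 between 20 and 60 min. The fit was tested on simulated data. Alternatives covered the block, the pseudocount (0.1 and 5), a signal minimum of 50, the libraries in the fit, the trend, 2 other scalings, other pairs of times and leaving out libraries.

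Named windows were the 8 with the largest fall and the 6 with the largest rise against the median window at a 20 min signal of 50 or more, the 6 strongest plateau windows, the loci the paper names, and up to 2 of the strongest windows of each class and gene list; RPS27A, RPS27B, RPL2A, RPS15 and PAU9 were named after their values were seen. The windows, classes and lists were chosen with earlier results of these data known. A count of Rap1 recognition sequences was planned and not run, and no window sequence is printed. Some withheld items are not reported here.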

Additional observations from a re-analysis of the deposited data

How the results depend on the processing

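Without the replicate block, which the labels' isolates define, 95 windows were lower and 0 higher on the spike-in scale (limma, 4 higher at an unadjusted p under 0.05), and the block changed the late-falling and plateau counts by less than 1.5 times. Scaling to the total gave 72 higher on that scale, and no trend 1. With only windows of a signal of at least 50, the median window was taken over the 548 left. Of these 81 (14.8%) were then lower and 54.9% higher than it, against 20.4% and 7.87% of 1118. With this minimum 18 RP windows were lower, 81 windows were late-falling and 57 at a plateau. Centered on tRNA windows, 56 were higher (5.01%). With 60 against 30 min, 77 were lower and 1 higher on the spike-in scale, 129 lower (11.5%) and 183 higher (16.4%) than the median window, 1 RP window was lower and 76 windows were late-falling.

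Leaving out single libraries of 20 or 60 min gave 103 to 217 lower and 0 to 5 higher on the spike-in scale, and 167 to 197 lower and 44 to 62 higher (3.94% to 5.55%) than the median window. The spike-in extremes came without the 60 min library of isolate 1 (103) and of isolate 2 (217). At 45 against 30 min, 2 to 65 were lower and 0 to 17 higher. All 225 late-falling windows kept a negative change relative to the median window without any single 20 or 60 min library, and 161 to 191 of them kept the call. With the signal minimum of 50, 130 of the 208 late-falling windows tested kept a negative change and 81 kept the call. At 60 against 30 min 136 of the 225 kept a negative change and 53 kept the call.

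Signs reversed for some named windows with a call. With 60 against 30 min, the change against the median window was 0.042 at SST2, 0.26 at PRE2 and RPL11A, 0.32 at TEF1, 0.31 at REH1, 0.16 at ENO1, 0.36 at RPS30B and SER1 and 0.15 at RPS0B and FRE8, and on the spike-in scale 0.085 at TEF1, 0.075 at REH1 and 0.12 at RPS30B and SER1. With the signal minimum it was 0.16 at PRE2 and RPL11A, 0.066 at TEF1, 0.094 at RPS30B and SER1 and 0.065 at SSB1. With 45 against 20 min it was -0.062 in RPL1B, -0.072 in RPL1A and -0.039 at the tRNA window near VPS53. Of the named windows with no call, 9 changed sign at 60 against 30 min and 2 of these were then higher than the median window, RPL1B and MRM2 (0.33) and TEF2 (0.36). The causes were not tested. The signal minimum changes the windows over which the median is taken, and 30 min is another baseline. With 2 isolates a common fall of all windows cannot be told apart from the difference between the libraries of 60 min.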
